A study of Mus musculus with 15 samples.

Results

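The imprinted genes outside the Igf2 locus were followed in subcutaneous mouse kidney tumors with and without Pbrm1, and 9 of 10 chosen genes were found by symbol among the 18279 genes of the deposited expression table. The 9 genes were Peg3, Plagl1, Mest, Dlk1, Meg3, Grb10, Peg10, Sgce and Impact, and the row of Phlda2 is not analysed here. RNA sequencing of 15 Renca tumors gave the values, and the comparison asked how loss of Pbrm1, which encodes the BAF180 subunit of a SWI/SNF chromatin remodeling complex, changes expression in a tumor grown in an immunocompetent host. Renca is a renal carcinoma line that arose spontaneously in a BALB/c mouse.

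The 5 control tumors came from Renca cells labelled as parental, which the study's methods describe as carrying a control knockout plasmid. Another 5 tumors came from Pbrm1 knockout clone 4 and 5 from Pbrm1 knockout clone 18, both made with transiently expressed Cas9, so that each of the 3 groups stands for 1 cell line. All cells were injected under the skin of the back in Matrigel, into female Balb/c mice 4 to 6 weeks old, and tumors were taken at about 1000 mm3, at ulceration or at signs of distress. The protocol names untreated mice and mice given PD-1 antibody, and the labels do not say which of them gave these tumors. The 5 tumors of a group are separate samples by their labels, and p-values set differences against the spread between tumors. With 1 cell line per group, they do not cover variation between independently made lines. Loss of Pbrm1 and other differences between the lines cannot be told apart.

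Imprinted genes are expressed mainly from the copy inherited from one parent, which is set by DNA methylation laid down in the germ line at imprinting control regions. Most lie in clusters in which one control region governs several genes, and many act on fetal growth, placenta, muscle and fat. They are known to be silenced or reactivated in many tumors, and total RNA counts do not tell which parental copy was read.

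The normalized counts used throughout are reads per gene divided by a size factor for each tumor, and 32924414 to 49099168 reads per tumor were recovered from them. Pbrm1 itself was read at 7451.5 to 9870.6 normalized counts in the control tumors and at 2483.8 to 3137.5 in the knockout tumors, a fall of 1.69 on the log2 scale (SE 0.07, adjusted p = 2.94e-11, limma). The 10 renal epithelial markers were all in the table, with Krt8, a keratin of simple epithelia, between 43750.3 and 65692.5 and Pax8, a kidney transcription factor, between 2719.2 and 4143.0. Their summed level was 115151.8 to 139162.8 in control and 98854.5 to 128679.4 in knockout tumors. A set of 5 knockout tumors, 9 and 10 of clone 4 and 11, 14 and 15 of clone 18, stood apart with 1020.6 to 2283.9 summed normalized counts of 10 skeletal muscle markers, against 114.8 to 570.0 in the other 10 tumors. These 5 are called muscle-rich, and the results that rest on them are given with and without them.

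The genes lie on 6 chromosomes of GRCm38, the assembly also named mm10 to which the reads were aligned, as annotated by GENCODE. Peg3 lies at chr7:6703892-6730431 on the minus strand, Plagl1 at chr10:13060504-13131694 on the plus strand, and Grb10 at chr11:11930508-12038683 on the minus strand. Dlk1, at chr12:109452823-109463336, and Meg3, at chr12:109541001-109571726, share one cluster and the plus strand, 77665 bases apart. Peg10, at chr6:4747306-4760517 on the plus strand, and Sgce, at chr6:4674350-4747207 on the minus strand, are read away from each other, with 99 bases between them. Mest, at chr6:30723547-30748465 on the plus strand, shares 912 exonic bases at its end with Copg2 on the opposite strand, and since the strand setting of the counting is not given in the sources used here, reads in those bases cannot be assigned to one gene with certainty.

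Promoter windows of 4 members are shown because starts of imprinted genes often lie in or near control regions, and they were searched for a short motif through which imprints are held in the embryo. ZFP57 is a KRAB zinc finger protein that binds the hexamer TGCCGC when it is methylated, and so keeps methylation at imprinting control regions. The windows are RefSeq sequences of GRCm38.p6, 250 bases before to 50 after an annotated start, written 5′ to 3′ on the strand of the gene, with the hexamer on either strand in capitals. They belong to Mest (chr6:30737800-30738099, plus strand), Meg3 (chr12:109540746-109541045, plus strand), Grb10 (chr11:12037371-12037670, minus strand) and Peg3 (chr7:6730370-6730669, minus strand).
Mest: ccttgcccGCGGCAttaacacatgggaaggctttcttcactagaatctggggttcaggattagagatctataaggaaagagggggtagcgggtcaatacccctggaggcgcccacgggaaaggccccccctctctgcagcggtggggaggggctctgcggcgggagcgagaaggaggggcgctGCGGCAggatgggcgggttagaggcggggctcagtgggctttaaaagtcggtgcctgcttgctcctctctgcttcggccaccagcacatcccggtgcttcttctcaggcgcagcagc
Meg3: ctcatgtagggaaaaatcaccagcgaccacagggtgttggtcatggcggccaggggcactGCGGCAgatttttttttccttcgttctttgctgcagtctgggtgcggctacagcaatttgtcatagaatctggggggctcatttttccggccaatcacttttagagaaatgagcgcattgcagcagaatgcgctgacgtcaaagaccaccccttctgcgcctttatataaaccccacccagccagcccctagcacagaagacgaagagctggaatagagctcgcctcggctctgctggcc
Grb10: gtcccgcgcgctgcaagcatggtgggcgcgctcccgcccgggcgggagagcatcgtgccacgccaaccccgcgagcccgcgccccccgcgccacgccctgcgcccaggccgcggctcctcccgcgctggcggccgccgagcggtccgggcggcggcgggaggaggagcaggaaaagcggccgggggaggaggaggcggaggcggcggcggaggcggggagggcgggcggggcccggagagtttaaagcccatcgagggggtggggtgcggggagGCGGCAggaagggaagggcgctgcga
Peg3: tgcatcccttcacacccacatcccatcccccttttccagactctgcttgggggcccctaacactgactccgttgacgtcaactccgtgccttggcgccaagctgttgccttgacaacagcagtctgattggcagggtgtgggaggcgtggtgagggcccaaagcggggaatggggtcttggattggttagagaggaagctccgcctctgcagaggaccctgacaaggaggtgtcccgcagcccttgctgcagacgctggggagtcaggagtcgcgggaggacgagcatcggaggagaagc
The Mest window shown held 2 matches and the Meg3 and Grb10 windows shown 1 each. Mest, Meg3 and Grb10 each have another annotated start whose window held none, and the windows of Dlk1 and Phlda2 held none. Over the 11 windows counted, from 7 members, 5 held a match, 2 of these being Mest windows that overlap almost wholly and 1 a Plagl1 window. Windows of Impact were left out of this count, and Peg10 and Sgce had no window. Of all 32851 windows of this length, 11.61% held at least 1 match and 1.53% at least 2. The Peg3 window held none, and shared 263 bases with the window of Usp29, which is read in the other direction. A second motif, GCCATNTT, was also searched for. None of the 11 windows held it, against 6.05% of all windows. The hexamer itself holds a CpG dinucleotide, and the 5 windows with a match held from 13 (Meg3) to 45 (Grb10) of them, against a median of 7 over all windows. The shares over all windows are therefore no background of like CpG content, and an excess of the hexamer beyond CpG content was not tested. A match is a description of the letters and no evidence of binding in these tumors.

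Per kilobase of merged exons, the members fell into an upper and a lower set. In the control tumors Impact stood at 340 ± 25.8 normalized counts per kb (SD, n = 5), Mest at 172 ± 50.9 and Grb10 at 115 ± 20.2. The other genes followed far below, with Sgce at 8.88 ± 2.49, Peg3 at 5.59 ± 2.56, Peg10 at 3.99 ± 2.33, Plagl1 at 2.46 ± 0.965, Meg3 at 2.36 ± 0.899 and Dlk1 at 1.92 ± 0.932. Mest and Grb10, and all neighbours in this order within the lower set, overlapped within 1 SD of each mean.

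Of the 9 genes, 1 rose in knockout tumors and none fell. The gene that rose was Impact, and the background is large, since 22.1% of the 18250 genes tested passed the same test (limma on log2 of the normalized count plus 1, Benjamini-Hochberg adjusted p under 0.05), 9.23% higher and 12.9% lower. One of 9, or 11.1%, is therefore not a result about imprinted genes as a group. The median log2 difference was 0.10 over the 9 genes and -0.02 over all genes tested. Of all calls 41.7% were higher in knockout tumors, and after quantile normalization this share was 53.5%. In the clones taken alone Impact was again the 1 member called, against 16.8% of all genes in clone 4 (6.79% higher) and 24.7% in clone 18 (10.4% higher). The comparisons of each clone share the same 5 control tumors. Between clone 18 and clone 4 no member passed, while 4.62% of all genes did, and edgeR and DESeq2 on the recovered reads also called no member. An unadjusted p under 0.05 (limma) was reached there by 1 of 9 members and by 3368 of 18250 genes.

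**Figure D1:**
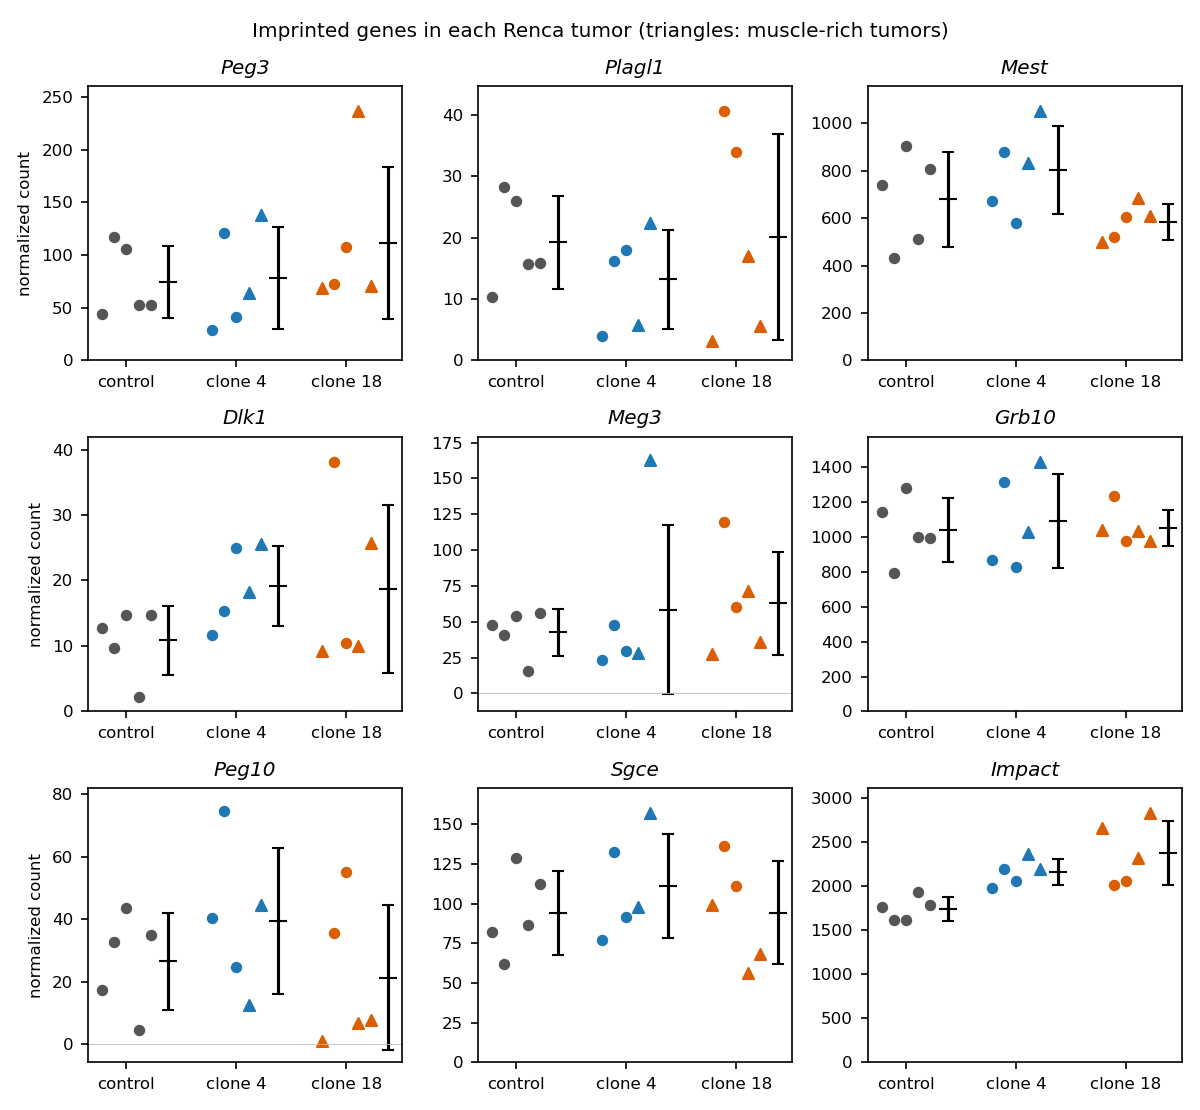
Normalized count of the 9 imprinted genes in each tumor, with 5 control, 5 clone 4 and 5 clone 18 tumors per panel in tumor order; black bars give the group mean and SD, and triangles mark the 5 muscle-rich tumors. Impact is the gene whose 10 knockout tumors all lie above the 5 control tumors, while the groups overlap in the other 8.

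Impact encodes a cytosolic protein that competes with the kinase GCN2 for its activator GCN1 and so dampens the response to amino acid shortage. It is expressed from the paternal copy in mice and lies at chr18:12955852-12992950 on the plus strand, where the annotation puts no exon of another gene over its exons. In tumors 1 to 5, the controls, it was read at 1764.0, 1611.8, 1615.4, 1928.4 and 1786.9 normalized counts. Clone 4 tumors 6 to 10 gave 1974.9, 2195.0, 2058.0, 2366.6 and 2195.6, and clone 18 tumors 11 to 15 gave 2655.3, 2006.8, 2057.7, 2317.5 and 2829.0. Every knockout tumor was above the highest control tumor, a separation that 3.11% of all genes showed in this direction. The log2 difference was 0.37 (SE 0.08, adjusted p = 0.00343, limma), or 1.30-fold with a 95% interval of 1.15 to 1.46. In clone 4 it was 0.31 (SE 0.09, adjusted p = 0.0264) and in clone 18 0.44 (SE 0.09, adjusted p = 0.00223). The call in clone 4 was lost without tumor 2, 3, 7 or 9, with a difference of at least 0.28 and an adjusted p of up to 0.0683. The clones did not differ detectably, with a difference of 0.13 and an interval of -0.07 to 0.32 (adjusted p = 0.501).

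Within the knockout tumors, the levels of Impact were higher in the muscle-rich ones. The 5 muscle-rich tumors gave 2195.6 to 2829.0 normalized counts of Impact and the other 5 knockout tumors 1974.9 to 2195.0. The 2 sets did not overlap but nearly touched, and the share of all genes separated in this way was not counted. The split into these sets was chosen after the values of Impact had been seen. In control tumors, with muscle sums of 181.9 to 570.0, Impact ranged from 1611.8 to 1928.4. The control tumors with the highest muscle sums, tumor 2 at 570.0 and tumor 4 at 552.4, held the lowest and the highest of these values. The marker Acta1, the skeletal muscle actin, was at 273.1 to 720.5 in the muscle-rich tumors and at 39.5 or less in all others. All 10 muscle markers were in the table and 0 of them passed the test between knockout and control. Without the muscle-rich tumors the difference of Impact was 0.24 and still passed (adjusted p = 0.0243), at a background of 6.73% higher calls. Under that choice the difference in clone 4 was 0.26 (adjusted p = 0.046, background 5.4% higher) and that in clone 18, left with 2 tumors, was 0.23 and no longer passed (adjusted p = 0.0954, background 7.05% higher). In a bulk tumor, more cells of one type and more RNA per cell cannot be told apart.

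**Figure D2:**
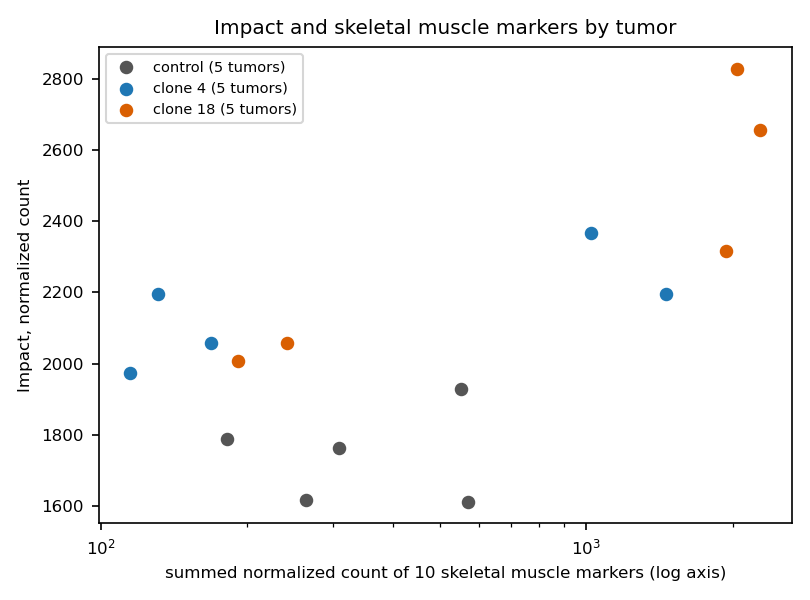
Normalized count of Impact (vertical axis) against the summed normalized count of 10 skeletal muscle markers (horizontal log axis), one point per tumor. The 5 tumors above 1000 on the horizontal axis are all knockout tumors and reach from 2195.6 to 2829.0, while the knockout tumors below 250 lie at 1974.9 to 2195.0 and the control tumors at 1611.8 to 1928.4.

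Genes next to Impact and its known partners were compared in the same way. Around Impact 7 genes lay within 1 Mb with a mean of at least 10 normalized counts, and they had a median log2 difference of 0.04, with 1 higher and 1 lower. Gcn1l1, the older symbol of the GCN1 gene to which IMPACT binds, differed by 0.06 (adjusted p = 0.752). Eif2ak4, which encodes GCN2, was outside the rule for named genes and was chosen after its values were seen. Its control tumors gave 1481.3 to 1721.0 normalized counts, its clone 4 tumors 1939.9 to 2827.6 and its clone 18 tumors 1477.7 to 1898.0. Clone 4 lay wholly above control by 0.52 (SE 0.09, adjusted p = 0.000779, limma), clone 18 overlapped control at 0.09 (adjusted p = 0.529), and the 2 clones differed by -0.43 (adjusted p = 0.0107). The share of all genes with clone 4 wholly above control was not counted.

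Peg3 and Plagl1 encode zinc finger transcription factors expressed from the paternal copy, and both are known to restrain growth in cultured cells. Peg3 gave 44.1, 117.1, 105.7, 52.7 and 52.9 normalized counts in control tumors, 28.9, 120.4, 40.8, 63.7 and 138.1 in clone 4, and 68.4, 72.6, 107.3, 236.6 and 70.5 in clone 18. The groups overlapped, and the highest value, in clone 18 tumor 14, lay well above the other 4 of its clone. The log2 difference between knockout and control was 0.22 with an interval of -0.60 to 1.05 (adjusted p = 0.743), 0.50 in clone 18 and -0.05 in clone 4. The sign in clone 4 turned positive after quantile normalization and in the count tests, and that of the pooled difference turned without the muscle-rich tumors (-0.09).

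Plagl1 was among the least abundant members, with 3 to 33 recovered reads per tumor. Its values were 10.4, 28.2, 26.0, 15.7 and 15.9 in control, 3.9, 16.2, 17.9, 5.7 and 22.3 in clone 4, and 3.1, 40.6, 34.0, 17.0 and 5.6 in clone 18. Of the knockout tumors 4, namely 6, 9, 11 and 15, were below every control tumor and 2, tumors 12 and 13, were above. The difference was -0.52 with an interval of -1.61 to 0.58 (adjusted p = 0.528), so neither a fall to 0.327 of control nor a rise to 1.49 times is outside the interval. Without the muscle-rich tumors the difference in clone 18 turned from -0.37 to 1.00 (adjusted p = 0.235).

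Mest encodes an enzyme of the alpha/beta hydrolase fold, expressed from the paternal copy in mesoderm and fat. Control tumors gave 739.2, 431.6, 905.1, 509.8 and 808.9 normalized counts. Clone 4 gave 670.2, 879.1, 577.9, 832.9 and 1051.6, and clone 18 gave 498.0, 521.7, 606.1, 684.6 and 610.1. The control range covered all knockout tumors but 1, clone 4 tumor 10. The pooled difference of 0.05 had an interval of -0.34 to 0.44 (adjusted p = 0.896), which covers 0.788 to 1.35 times the control level. The clones went apart, at 0.26 in clone 4 and -0.17 in clone 18, and the difference between them of -0.44 had an unadjusted p of 0.0362 and an adjusted p of 0.232 (limma). Its antisense neighbour Copg2, a subunit of the COPI vesicle coat, rose in knockout tumors by 0.28 (SE 0.05, adjusted p = 0.00131), from 4472.0 to 4739.3 normalized counts in control to 4728.0 to 6178.6, with 9 of 10 knockout tumors above all controls.

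Dlk1 and Meg3 are reciprocally imprinted neighbours. Dlk1, from the paternal copy, encodes a transmembrane protein of the Notch ligand family that holds back fat cell differentiation, and Meg3, from the maternal copy, is a long noncoding RNA. Dlk1 was read at 12.8, 9.7, 14.8, 2.2 and 14.8 normalized counts in control, at 11.6, 15.3, 24.9, 18.2 and 25.6 in clone 4, and at 9.2, 38.1, 10.5, 10.0 and 25.7 in clone 18. Of the 10 knockout tumors 6 were above the highest control tumor and 4 were inside the control range. The difference of 0.80 was the largest among the 9 genes, with an interval of -0.05 to 1.66, and did not pass (adjusted p = 0.177, limma). These values rested on 2 to 31 reads per tumor, and a difference of this size did not pass at that depth and spread.

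Meg3 gave 47.6, 40.5, 53.8, 15.7 and 56.0 normalized counts in control tumors, 23.1, 47.8, 29.8, 28.4 and 162.6 in clone 4, and 27.6, 119.3, 60.2, 71.2 and 35.8 in clone 18. Clone 4 tumor 10 and clone 18 tumor 12 were the highest by far and control tumor 4 the lowest. The difference was 0.31 with an interval of -0.60 to 1.23 (adjusted p = 0.667), and without control tumor 4 it was -0.003. The same tumors were also highest in Rian, another noncoding RNA of the cluster, with 570.3 in tumor 10 and 591.8 in tumor 12, against 133.0 to 415.4 in the others, and Dio3, the thyroid hormone deiodinase at the far end, with 133.7 and 68.9 against 4.8 to 37.0. In Mirg, a further noncoding RNA there, they did not lead together, since tumor 12 had 39.4, tumor 13 had 39.3 and tumor 10 had 29.0 normalized counts. Rian, Mirg and Dio3 did not pass between knockout and control (adjusted p = 0.293, 0.312 and 0.987, limma) and were named outside the rule for named genes.

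The balance of the pair was compared as the log2 ratio of Dlk1 to Meg3, taken with 1 added to each normalized count. It was -1.82, -1.96, -1.79, -2.38 and -1.85 in control tumors, -0.94, -1.58, -0.25, -0.61 and -2.62 in clone 4, and -1.49, -1.62, -2.41, -2.71 and -0.46 in clone 18. In clone 4, 4 of the 5 tumors had a higher ratio than every control tumor, and tumor 10 had a lower one. The mean ratio in clone 4 was -1.20 ± 0.93 (SD, n = 5) against -1.96 ± 0.24 in control (n = 5), a difference of 0.76 with p = 0.111 and an adjusted p of 0.667 over 6 ratio comparisons (exact two-sided permutation test, smallest p it allows 0.00794). This outcome hung on 1 tumor, since without tumor 10 the difference was 1.11 with an adjusted p of 0.0476 (exact permutation test over 126 splits). The unadjusted p was then 0.00794, again the smallest the permutation test allows. All 15 tumors were left out in turn, and leaving out tumor 10 was the only case with an adjusted p under 0.05. Over both clones the difference was 0.49 (exact permutation p = 0.259, adjusted p = 0.777).

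Grb10 encodes an adaptor that binds the insulin and IGF1 receptors and limits their signal, and outside the brain it is expressed mainly from the maternal copy. Its values were 1140.8, 790.9, 1281.5, 998.4 and 996.0 normalized counts in control, 866.0, 1314.9, 825.6, 1029.7 and 1430.3 in clone 4, and 1039.9, 1232.9, 979.1, 1033.4 and 976.2 in clone 18. The 3 groups overlapped throughout. The difference of 0.04 had the narrowest interval of the 8 genes that did not pass, -0.23 to 0.31 or 0.855 to 1.24 times control (adjusted p = 0.866). Its neighbour Cobl, an actin nucleator, fell by 1.11 (SE 0.15, adjusted p = 4.42e-05), from 491.5 to 760.1 in control to 189.8 to 360.3 in knockout tumors, with no overlap, a separation that 4.87% of all genes showed downward.

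Peg10 and Sgce share a start region and the paternal copy. Peg10 derives from a retrotransposon and is needed in placenta, and Sgce encodes epsilon-sarcoglycan of the dystrophin-associated complex. Peg10 was at 17.4, 32.6, 43.6, 4.5 and 34.9 normalized counts in control, 40.5, 74.5, 24.9, 12.5 and 44.6 in clone 4, and 1.0, 35.7, 55.0, 7.0 and 7.8 in clone 18. Values spread widely inside every group, over 1 to 78 recovered reads per tumor. The 5 muscle-rich tumors gave 1.0 to 44.6 and the other 5 knockout tumors 24.9 to 74.5. The pooled difference of -0.10 had an interval of -1.64 to 1.43 (adjusted p = 0.941), its sign turned after quantile normalization (0.01) and in edgeR and DESeq2, and it was 0.99 without the muscle-rich tumors (adjusted p = 0.22). The part of those cells in the spread of Peg10 was not tested.

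Sgce was steadier, with 82.4, 61.7, 128.9, 86.3 and 112.1 normalized counts in control tumors, 77.1, 132.8, 91.5, 97.8 and 157.1 in clone 4, and 99.0, 136.6, 111.3, 56.1 and 68.3 in clone 18. The groups overlapped, and the difference was 0.10 with an interval of -0.39 to 0.60 (adjusted p = 0.807). The log2 ratio of Peg10 to Sgce was again taken with 1 added to each normalized count. It ran from -3.99 to -0.90 in control, from -2.87 to -0.83 in clone 4 and from -5.64 to -1.0 in clone 18. Its mean was -2.26 ± 1.44 in 10 knockout tumors and -2.05 ± 1.17 in 5 control tumors, a difference of -0.21 (exact two-sided permutation p = 0.792, adjusted p = 0.792). The sign of that difference turned without tumor 2, without tumor 11 and without the muscle-rich tumors (0.08, 0.17 and 0.76).

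**Figure D3:**
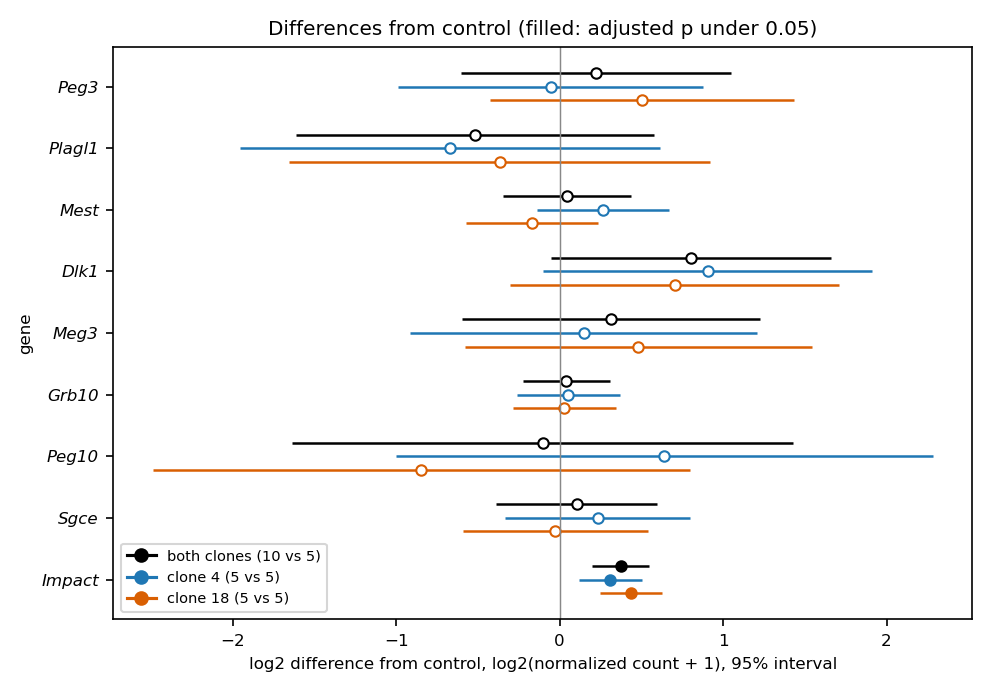
Log2 difference from control of the 9 imprinted genes, with 95% intervals, for both clones together (black, 10 against 5 tumors), clone 4 (blue) and clone 18 (orange), each 5 against the same 5 control tumors. Filled points passed an adjusted p of 0.05, which only Impact did, and all other intervals include 0.

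Peg3, Meg3 and Grb10 moved with fibroblast markers across the 15 tumors. The summed level of 9 fibroblast markers, led by collagens, was 53409.2 to 89307.7 in control tumors, 20042.4 to 192159.1 in clone 4 and 67044.0 to 132018.9 in clone 18, and 0 of the 9 passed between knockout and control. Clone 4 tumor 6 had the lowest sum and tumor 10 the highest. Over 15 tumors, the log2 level of Grb10 correlated with the log2 sum at r = 0.72 and rho = 0.65 (permutation p = 0.00194 and 0.00973), Meg3 at r = 0.72 and rho = 0.68 (permutation p = 0.00291 and 0.00617), and Peg3 at r = 0.69 and rho = 0.76 (permutation p = 0.00489 and 0.00151). Adjusted over the 9 genes correlated, p for r was 0.0131, 0.0131 and 0.0147, and for rho 0.0292, 0.0278 and 0.0136 (permutation tests of 100000 draws). This relation was looked for after the values of tumors 10 and 12 had been seen.

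With the mean of each group removed, r was 0.77 for Grb10, 0.71 for Meg3 and 0.65 for Peg3. Without tumors 6 and 10, the farthest from the median sum, r was 0.63 for Grb10 (permutation p = 0.0207, unadjusted) and 0.59 for Meg3 (p = 0.0352, permutation), but 0.50 for Peg3 (permutation p = 0.0866), whose linear relation did not pass without them. The rank correlations without these tumors were 0.50 for Grb10, 0.53 for Meg3 and 0.66 for Peg3. Among genes with a mean of at least 10, 1.82%, 1.85% and 2.36% had an r at least as high as Grb10, Meg3 and Peg3. The other 6 members did not pass, from r = 0.03 for Peg10 to 0.50 for Sgce, and Impact was at 0.23.

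**Figure D4:**
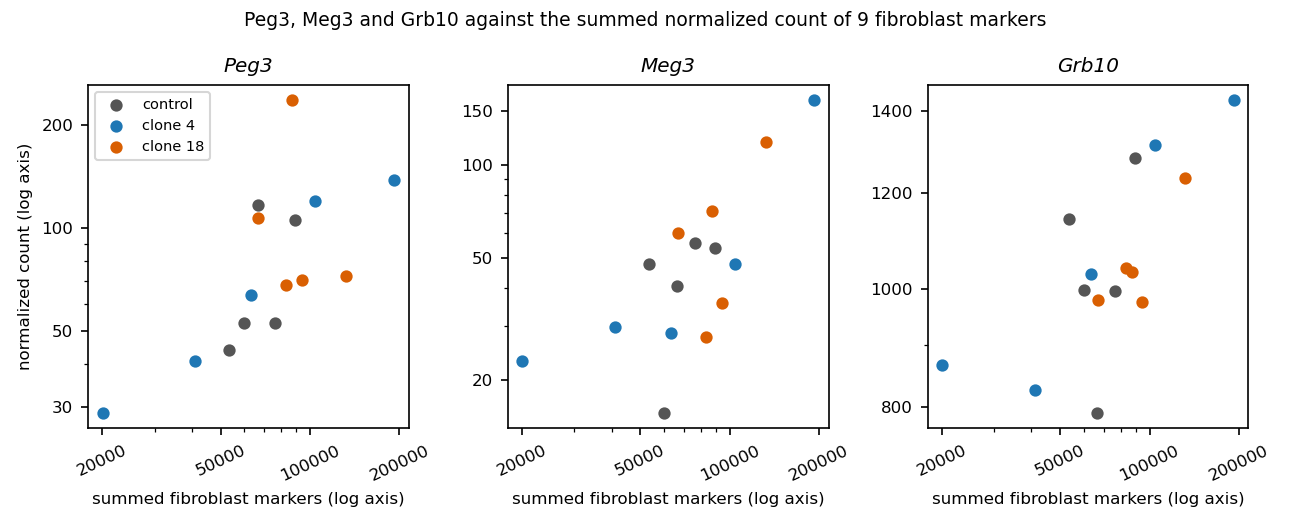
Normalized counts of Peg3, Meg3 and Grb10 (vertical log axes) against the summed normalized count of 9 fibroblast markers (horizontal log axes), one point per tumor colored by group. Clone 4 tumor 10, at 192159.1 on the horizontal axis, is the highest in Meg3 and Grb10, and clone 4 tumor 6, at 20042.4, is the lowest in Peg3.

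The share of other imprinted genes that passed was near that of all genes. Of 59 listed, 46 were tested, 4 rose and 6 fell in knockout tumors, which is 21.7% against 22.1% of all genes, and their median difference was -0.06 against -0.02. The list was drawn up with earlier results of these data known. In the clusters of the members 2 of 24 rose and 5 fell, and in other clusters 2 of 22 rose and 1 fell. Without the muscle-rich tumors 2 rose and 5 fell, and without control tumor 1 or 4 the count of higher genes was also 2.

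Of the 6 lower genes 5 lay in the clusters of Phlda2, Grb10 and Peg10, Cobl among them. Tspan32, a tetraspanin of blood cells in the Phlda2 cluster, fell by 1.45 (SE 0.23, adjusted p = 0.000201), from 98.3 to 325.0 normalized counts in control to 54.6 to 78.4 in knockout tumors. Osbpl5, a lipid transfer protein of the same cluster, was at 2157.0 to 2463.8 in control, 1716.9 to 2044.0 in clone 4 and 1333.7 to 1451.2 in clone 18, with no overlap between any of the 3 groups. Of all genes 4.87% had all knockout tumors below all controls, and the share with all 3 groups apart was not counted. Osbpl5 fell by 0.50 over both clones (adjusted p = 0.00249), and the clones differed by -0.45 (SE 0.06, adjusted p = 0.000195, limma). Ppp1r9a, an actin-binding scaffold near Peg10, fell by 0.75 (adjusted p = 0.0142), a call lost without control tumor 1 (0.0586) or without the muscle-rich tumors (-0.60, adjusted p = 0.102). Slc22a18, a transporter beside Phlda2, fell by 0.51 (adjusted p = 0.0284), a call lost after quantile normalization (0.0673) or without control tumor 2, 3 or 4 (up to 0.0893). Macrophage markers were also lower in knockout tumors, 5 of 7 passing, with a summed level of 56401.8 to 78107.2 against 78938.1 to 105117.0 in control, as were 2 of 6 T cell markers, and their part in these falls was not tested.

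Slc38a4, an amino acid transporter imprinted outside these clusters, had the largest difference, -2.20 (SE 0.62, adjusted p = 0.0166), from 19.7 to 78.4 normalized counts in control to 0.0 to 28.3 in knockout tumors, and lost its call with a pseudocount of 0.1 (adjusted p = 0.0628) or without control tumor 2 (0.0524). The genes that rose did so by less: Tssc4, a splicing factor of the Phlda2 cluster, by 0.28 (adjusted p = 0.0179), Commd1, an endosomal sorting protein, by 0.32 (adjusted p = 0.0332), and H13, the signal peptide peptidase, by 0.17 (adjusted p = 0.0176), besides Copg2. Commd1 lost its call without tumor 1, 2, 4, 5 or 6 (adjusted p up to 0.0952), H13 without tumor 1 (0.0537) and Tssc4 without tumor 4 (0.0566). Without the 5 muscle-rich tumors Commd1 differed by 0.33 (adjusted p = 0.0653) and H13 by 0.15 (0.089), about as much as with them, and neither passed.

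**Figure D5:**
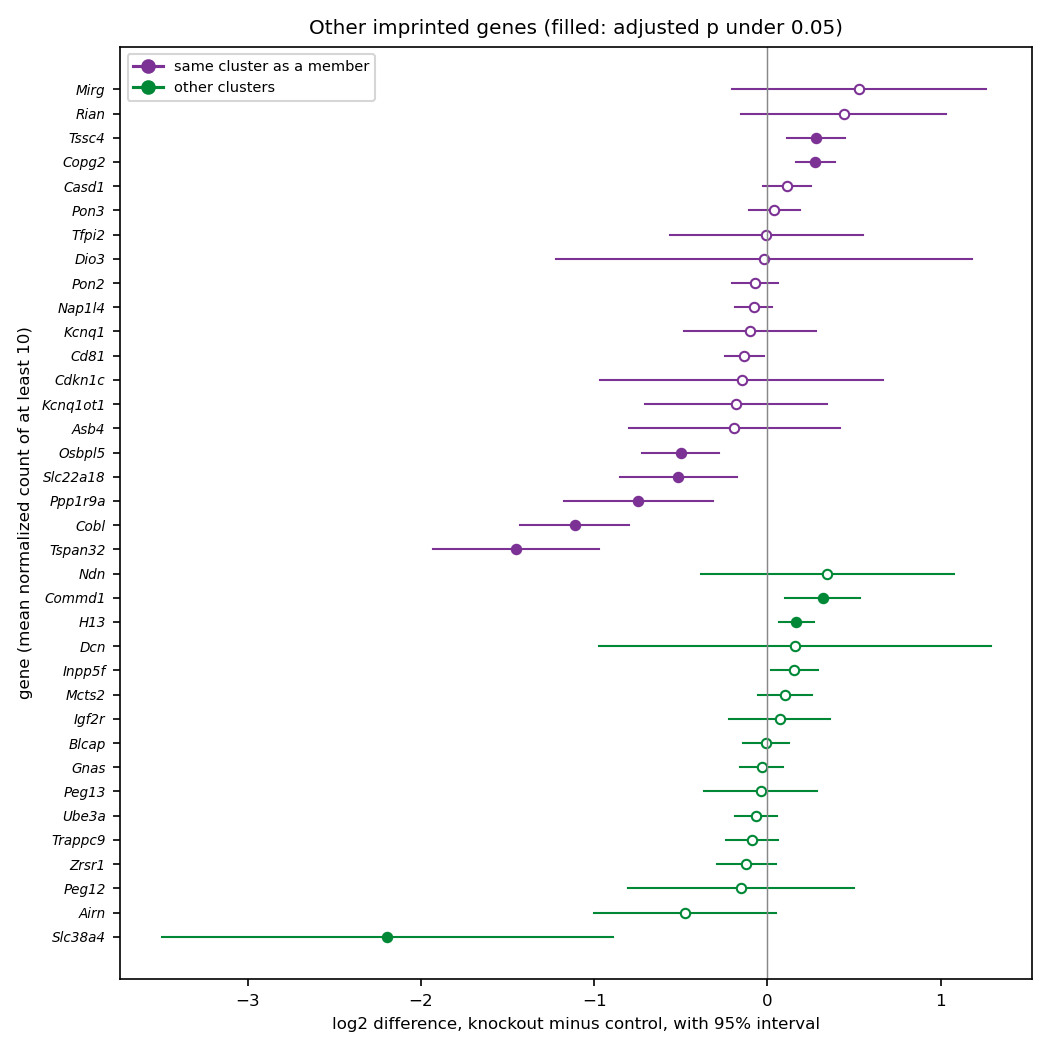
Log2 difference between 10 knockout and 5 control tumors, with 95% intervals, for the 36 other imprinted genes with a mean of at least 10 normalized counts, in the clusters of the members (purple) or elsewhere (green). Filled points passed an adjusted p of 0.05, with 4 genes higher and 6 lower, from -2.20 for Slc38a4 to 0.32 for Commd1.

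Of 17 genes that set or keep imprints, 2 rose and 0 fell, 11.8% against 22.1% of all genes. Arid4a, a chromatin protein that acts at the Prader-Willi imprinting center, rose by 0.21 (SE 0.06, adjusted p = 0.0111), and Ehmt2, the histone H3K9 methyltransferase G9a, by 0.17 (SE 0.05, adjusted p = 0.0202, but 0.0592 without control tumor 4). The DNA methyltransferases, the TET enzymes, Trim28, Ctcf and the other listed genes did not pass. Of 28 partners and paralogs of the members, 4 rose and 1 fell, 17.9%. Plag1, the growth-promoting relative of Plagl1, rose by 0.71 (SE 0.16, adjusted p = 0.00412), from 76.6 to 143.8 normalized counts in control to 104.7 to 184.7, though not without the muscle-rich tumors (0.64, adjusted p = 0.0524). Plagl2 rose by 0.34 (adjusted p = 0.0315), Phlda1, a relative of Phlda2, by 0.54 (adjusted p = 0.039) and Traf2, an adaptor that the Peg3 protein binds, by 0.21 (adjusted p = 0.0298). Phlda1 lost its call without tumor 1, 2, 3, 4, 5, 7, 8, 12 or 13 (adjusted p up to 0.0904), Plagl2 without tumor 3, 4, 5 or 14 (up to 0.103) and Traf2 without tumor 2, 3 or 4 (up to 0.108). Dag1, the dystroglycan that sarcoglycans accompany, fell by 0.50 (SE 0.08, adjusted p = 0.000273), from 4623.7 to 6828.5 to 3377.0 to 4314.4, with no overlap, a separation that 4.87% of all genes showed downward. Between the clones 3 of these 28 genes passed (10.7%), 1 higher and 2 lower in clone 18, where 4.62% of all genes passed. They are Eif2ak4, Phlda3 and Eif2s1, and all 3 were chosen after their values were seen. Phlda3, another relative of Phlda2, was at 1699.9 to 2018.5 normalized counts in clone 4, 1916.0 to 2288.1 in control and 2224.2 to 2813.9 in clone 18. Clone 18 was higher than clone 4 by 0.49 (SE 0.07, adjusted p = 0.000633, limma), with differences from control of 0.28 (adjusted p = 0.00948) in clone 18 and -0.20 (adjusted p = 0.0684) in clone 4. Eif2s1, which encodes the initiation factor subunit that GCN2 phosphorylates, differed between the clones by -0.25 (SE 0.06, adjusted p = 0.0212). It did not pass without tumor 9, 14 or 15 (adjusted p up to 0.057), after quantile normalization (0.0604) or without the muscle-rich tumors (-0.14, adjusted p = 0.394).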

How the data were processed

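The deposited table holds DESeq-normalized read counts, a signal in which the authors divided the reads of each gene by a size factor of each tumor, after alignment to mm10 with TopHat2 and counting with HTSeq; versions and strand setting are not given in the sources used here. One read was worth 0.881 to 1.309 normalized counts, and 100% of values up to 8000 came out as whole reads within 0.06, so reads were recovered (32924414 to 49099168 per tumor). The 18250 genes above 0 in any tumor were tested on log2(normalized count + 1) with limma 3.58.1 with a trend and Benjamini-Hochberg adjustment in R 4.3.3, once with 10 knockout against 5 control tumors and once with 3 groups. Fold changes on this scale understate the change of low genes. limma replaced the two-sample test of the study because groups are small. It was tested on simulated data that gave every gene the same spread beyond read sampling and no difference between clones. The tumors do not share this setting, and members with a wider spread were not covered by it. Ratios of 2 genes, taken as differences on the same log2(normalized count + 1) scale, were compared by exact permutation. edgeR 4.0.16 and DESeq2 1.42.0 were run on the recovered reads as alternatives. Counts of tumors within a group were much further apart than read sampling gives (chi-square statistics of 18.56 to 172.2 times their degrees of freedom over 30 pairs). So none was the same library sequenced again, but separate libraries of one tumor would also differ by more than read sampling and are not excluded.

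The members and gene lists were chosen with earlier results of these data known. Besides the members and Pbrm1, a listed gene was named by rule when it passed between knockout and control at a mean of at least 10, up to 6 per direction and list. Rian, Mirg, Dio3, Usp29, Gcn1l1, Trim28, Ctcf, Eif2ak4, Phlda3 and Eif2s1 were named outside this rule and did not pass between knockout and control. Of 4 keratinocyte markers 2 were in the table, at a summed level of at most 18.0. Of 6 adipocyte markers 0 rose and 1 fell, of 8 endothelial markers 0 passed, and of 10 renal epithelial markers 1 rose and 1 fell. Alternatives were pseudocounts of 0.1 and 5, a mean of at least 10, upper quartile scaling, quantile normalization, limma without a trend, the count tests, and each tumor left out. The tumors with muscle marker sums above 500 and Acta1 above 100 were left out together as an alternative chosen after the data, Impact included, had been seen. Places, exon lengths and overlaps come from GENCODE M21 (96.7% of tested genes placed). Intervals are 95%.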

Additional observations from a re-analysis of the deposited data

Results flagged for a closer look

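Single tumors stood far from the other 4 of their group, by Dixon's test, in 7 of 99 groups examined, where chance gives about 1 in 20 (4.95). Among the members these were Peg3 in clone 18 tumor 14 (236.6 normalized counts, the others 68.4 to 107.3), Meg3 in clone 4 tumor 10 (162.6, the others 23.1 to 47.8) and Grb10 in clone 18 tumor 12 (1232.9, the others 976.2 to 1039.9). The log2 ratio of Dlk1 to Meg3 was -2.38 in control tumor 4 and -1.96 to -1.79 in the other control tumors. In tumor 4 it rested on 2 reads of Dlk1 and 14 of Meg3. Among the other named genes they were Cobl in control tumor 2 (760.1, the others 491.5 to 564.0), Dag1 in the same tumor (6828.5, the others 4623.7 to 5258.6) and H13 in clone 18 tumor 12 (7629.7, the others 8442.9 to 8675.8).

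The effect differed between the 2 clones in a direct test for Osbpl5 (clone 18 minus clone 4 -0.45, adjusted p = 0.000195, limma) and Eif2ak4 (-0.43, adjusted p = 0.0107, limma), and the other way for Phlda3 (0.49, adjusted p = 0.000633, limma). It also differed for Eif2s1 (-0.25, adjusted p = 0.0212, limma), and for no member. Eif2ak4, Phlda3 and Eif2s1 were chosen after their values were seen, and only the call of Eif2s1 was lost in any of the 24 alternatives run for these genes.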

How the results depend on the processing

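Impact passed between knockout and control under all 24 alternatives, at 0.24 to 0.41 and adjusted p of 0.000233 to 0.0243. In clone 4 it passed under 20 of 24, at 0.26 to 0.35, and not without tumor 2, 3, 7 or 9 (adjusted p up to 0.0683), so that the count of members called higher there ran from 0 to 1; in clone 18 it passed under 23 of 24, the exception being the set without muscle-rich tumors (0 members higher). The other 8 members passed in none of 768 fits (smallest adjusted p 0.109, Dlk1 after quantile normalization), and 57 of these had the opposite sign to the reported value, 34 of them with 1 tumor left out. Without the muscle-rich tumors the sign turned in knockout minus control for Peg3 (-0.089), Mest (-0.029), Grb10 (-0.004) and Peg10 (0.99), in clone 4 minus control for Meg3 (-0.28) and Grb10 (-0.07), in clone 18 minus control for Plagl1 (1.00), Peg10 (1.03) and Sgce (0.43), and in clone 18 minus clone 4 for Dlk1 (0.28), Grb10 (0.17), Peg10 (0.066), Sgce (0.33) and Impact (-0.029). It also turned for the log2 ratio of Peg10 to Sgce (0.76 for both clones, 0.60 for clone 18) and of Dlk1 to Meg3 in clone 18 (-0.06), and 2 other imprinted genes were then called higher. Quantile normalization, edgeR and DESeq2 gave 0.057, 0.07 and 0.064 for Peg3 in clone 4 and 0.011, 0.195 and 0.192 for Peg10 in knockout minus control; edgeR and DESeq2 gave 0.053 and 0.053 for Plagl1 and 0.021 and 0.007 for Sgce in clone 18 minus control. The cause of these turns was not tested.

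With each tumor left out in turn, other imprinted genes called higher ran from 2 to 4. The ratio of Peg10 to Sgce ran from -0.69 to 0.17 for both clones and from -0.08 to 0.71 for clone 4, and that of Dlk1 to Meg3 from 0.52 to 1.11 for clone 4 and from -0.10 to 0.46 for clone 18. For knockout minus control the ranges that crossed 0 were -0.10 to 0.16 for Mest, -0.003 to 0.44 for Meg3, -0.054 to 0.12 for Grb10, -0.61 to 0.27 for Peg10 and -0.036 to 0.23 for Sgce. For clone 4 minus control they were -0.32 to 0.24 for Peg3, -0.32 to 0.37 for Meg3 and -0.052 to 0.15 for Grb10, for clone 18 minus control -0.74 to 0.10 for Plagl1, -0.067 to 0.11 for Grb10 and -0.18 to 0.14 for Sgce, and for clone 18 minus clone 4 -0.07 to 0.77 for Plagl1 and -0.12 to 0.08 for Grb10. The 17 other genes named by rule kept their sign in all 408 values and their call in 373. With 1 to 78 reads per tumor, changes in Dlk1, Plagl1 and Peg10 smaller than their intervals could not be seen. No paired analysis was possible because tumor numbers are not shared between groups.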
